A study of Homo sapiens with 6 samples.

Results

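The 10 genes described here encode the FOS and JUN subunits of the transcription factor AP-1 (FOS, FOSB, FOSL1, FOSL2, JUN, JUNB and JUND) and the zinc finger factors EGR1, EGR2 and EGR3. They were taken by symbol, and all 10 were present among the 14803 genes of the count table. RNA was sequenced from MCF-12A cells, an established line of human mammary epithelial cells that are not tumorigenic and lack estrogen receptor. The cells had been treated for 24 h with octanoic acid (OA) or its vehicle, phosphate-buffered saline (PBS). OA is a medium-chain saturated fatty acid that was supplied as the sodium salt, and both groups were kept in complete medium with its growth factor supplements. There were 3 libraries per group, and the total per library was 43049972 to 59935521 counts for vehicle and 47508208 to 49585010 for OA. Nothing in the labels ties each library to a culture of its own, so the spread behind every p-value may be technical.

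Immediate early genes are transcribed within minutes of a stimulus without new protein synthesis, and most of their mRNAs are short-lived. All libraries here were taken at 24 h, so they give levels at that time and do not show an early response. FOS and JUN proteins pair through leucine zippers and bind the TPA response element and the related cAMP response element, and FOS proteins need a JUN partner because they do not form stable homodimers. EGR proteins bind GC-rich sites through 3 zinc fingers. Growth factor signals reach many of these genes through the kinase ERK, which activates ternary complex factors bound with the serum response factor SRF at the CArG box. AP-1 acts in proliferation, migration and differentiation of breast epithelium.

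Promoter windows, from 250 bases before to 50 bases after the annotated start, were available from RefSeq (GRCh38.p14) for 8 of the 10 genes, and FOSL1 and EGR3 were not matched. The windows of the steepest risers, EGR1 and EGR2, are shown because they held CArG boxes, and that of JUND because it held a full cAMP response element. The window of FOS, the riser with the smallest called change, is also shown. These windows were picked by motif and size of change, so they cannot show whether a motif goes with the response. Sequences run 5′ to 3′, and capitals mark every match, on either strand, to the CArG box, the cAMP response element TGACGTCA, its half-site TGACG, the TPA response element TGANTCA and the EGR site GCGNGGGCG.
EGR1 (chr5:138465229-138465528, plus strand): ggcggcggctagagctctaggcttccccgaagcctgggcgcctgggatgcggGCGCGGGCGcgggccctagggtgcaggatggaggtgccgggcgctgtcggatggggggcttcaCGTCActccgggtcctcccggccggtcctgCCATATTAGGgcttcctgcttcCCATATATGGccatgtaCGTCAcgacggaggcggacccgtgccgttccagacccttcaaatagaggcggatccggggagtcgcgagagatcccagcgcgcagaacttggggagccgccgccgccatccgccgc
EGR2 (chr10:62816317-62816616, minus strand): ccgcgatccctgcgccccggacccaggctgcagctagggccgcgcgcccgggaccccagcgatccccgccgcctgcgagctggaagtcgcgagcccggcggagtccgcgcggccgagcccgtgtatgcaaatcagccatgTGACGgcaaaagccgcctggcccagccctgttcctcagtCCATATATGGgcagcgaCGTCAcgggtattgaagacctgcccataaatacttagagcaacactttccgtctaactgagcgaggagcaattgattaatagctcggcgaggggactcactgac
JUND (chr19:18281573-18281872, minus strand): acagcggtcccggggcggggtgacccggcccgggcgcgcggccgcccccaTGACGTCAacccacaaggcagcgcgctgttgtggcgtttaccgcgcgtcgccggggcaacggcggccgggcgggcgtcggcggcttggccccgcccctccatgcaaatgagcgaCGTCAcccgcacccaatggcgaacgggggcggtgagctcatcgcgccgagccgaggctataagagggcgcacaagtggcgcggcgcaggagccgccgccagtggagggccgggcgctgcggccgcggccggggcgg
FOS (chr14:75278578-75278877, plus strand): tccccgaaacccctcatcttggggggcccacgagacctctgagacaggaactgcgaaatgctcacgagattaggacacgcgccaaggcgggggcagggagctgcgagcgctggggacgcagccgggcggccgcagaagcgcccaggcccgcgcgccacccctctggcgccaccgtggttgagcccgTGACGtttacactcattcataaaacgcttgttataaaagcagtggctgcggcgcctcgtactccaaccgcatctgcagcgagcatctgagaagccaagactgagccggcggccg

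In the EGR1 window the capitals mark, in order, an EGR site, a half-site, a pair of CArG boxes and another half-site, with the CArG boxes starting 105 and 83 bases before the start. In the window of the third EGR2 start, the CArG box began 71 bases before the start and lay between half-sites. The other EGR2 windows held 0 CArG boxes. The full cAMP response element of JUND, which contains a half-site on each strand, began 200 bases before its start. Of all 35116 RefSeq windows of this length, 1.29% held a CArG box, 1.85% a full cAMP response element, 24.6% a half-site, 7.71% a TPA response element and 9.43% an EGR site. Each of the 8 matched genes had a half-site in at least 1 window. A match describes letters in a window and not a bound site, and elements outside these windows were not searched. A CArG box of FOS further upstream would thus have been missed, and EGR3 and FOSL1 had no window to search. Whether CArG boxes go with the size of the change was not tested.

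**Figure D1:**
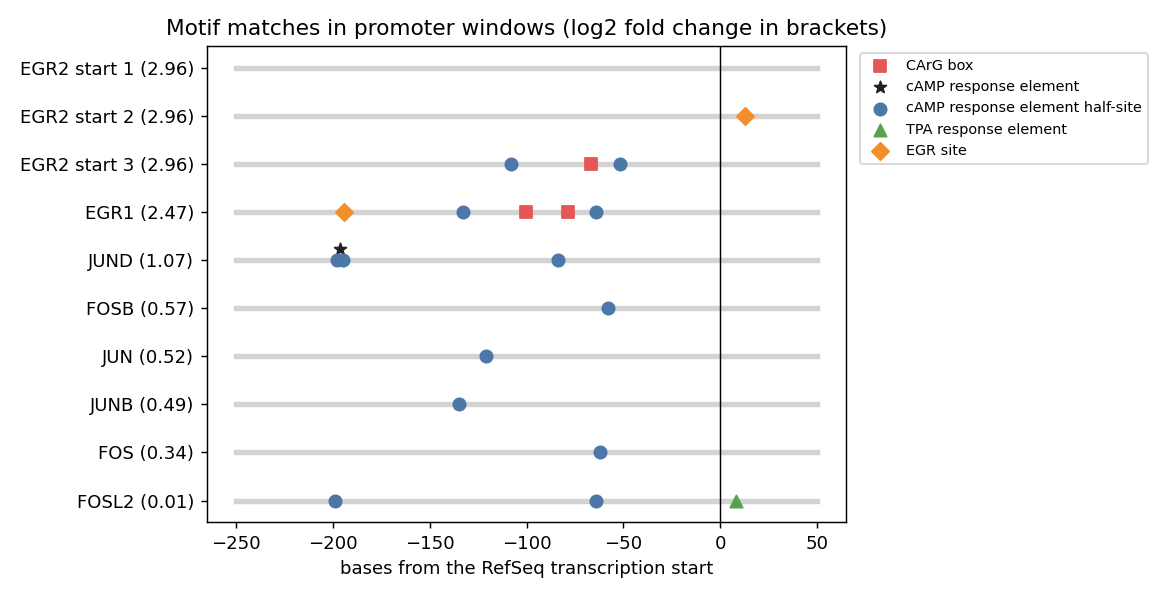
Motif matches in the promoter windows of the 8 matched genes, by distance in bases from the RefSeq start (x axis), with genes ordered by log2 fold change (in brackets). CArG boxes appear in the EGR1 window and at the third EGR2 start, and the windows of FOS, FOSB, JUN and JUNB each hold 1 half-site.

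The comparison asked how OA changed transcript levels of these factors relative to vehicle. Of the 10 genes, 8 rose, FOSL1 fell and FOSL2 did not pass the test. EGR1 and EGR2 rose most, at 5.55-fold and 7.81-fold, followed by JUND and EGR3 at about 2-fold each, and FOSB, JUN, JUNB and FOS rose by smaller steps. Levels are CPM, counts expressed relative to the library total, scaled by TMM, a factor per library that centres the bulk of genes, and changes were called by edgeR's quasi-likelihood test at a false discovery rate of 0.01. With this test 84.5% of 14785 genes were called, 43.3% higher and 41.1% lower, and 22.3% were called more than 2-fold higher. The 9 of 10 called is thus near the background, and 4 of 10 were more than 2-fold higher. The groups did not overlap for 9 of 10 genes, against 88.8% of all genes tested. The median log2 fold change of the 10 genes was 0.55, against 0.03 for all genes tested. With library totals in place of TMM the latter became 0.32 and the members' log2 fold changes were larger by 0.28 to 0.29, so each change is to be read relative to the median of all genes.

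**Figure D2:**
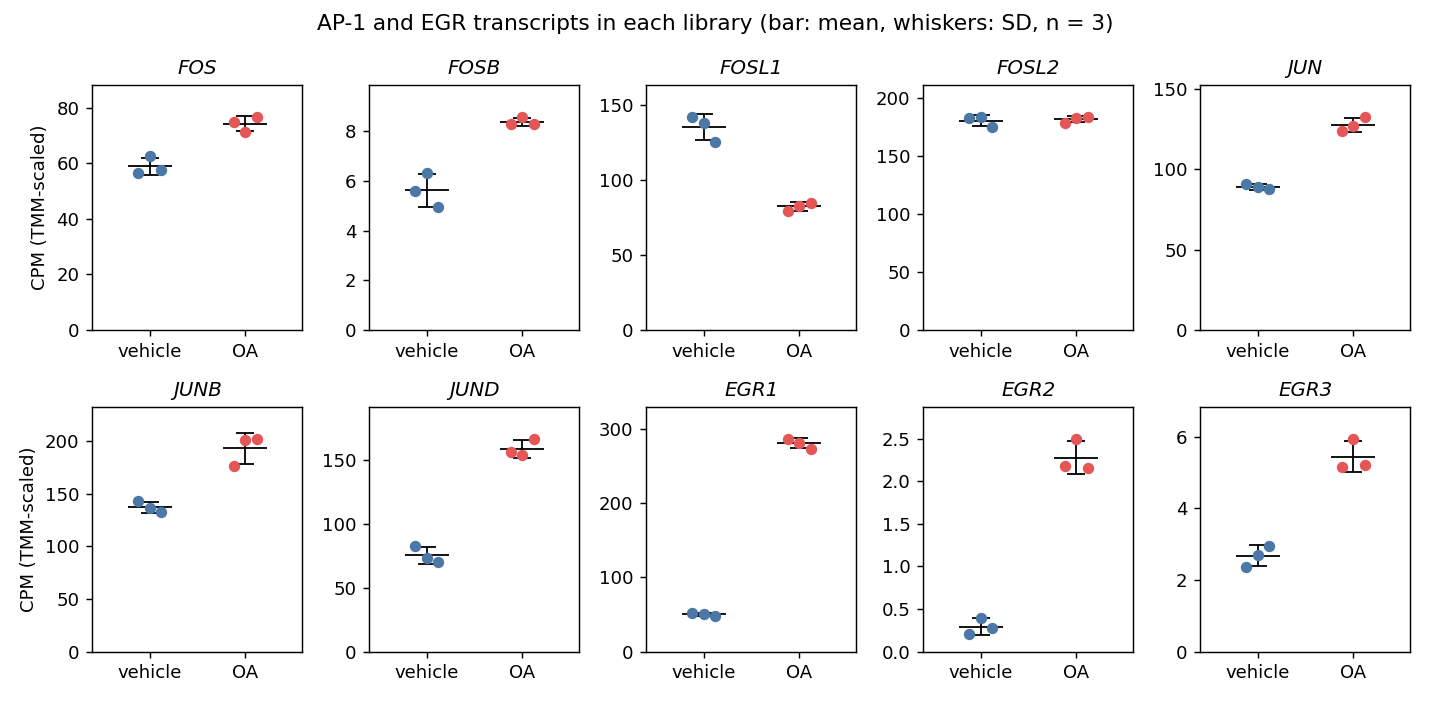
TMM-scaled CPM (y axis, from 0) of each gene in the 3 vehicle and 3 OA libraries. Points are libraries, the bar is the mean and whiskers are the SD. FOSL2 is the gene whose groups overlap, and FOSL1 the gene whose OA libraries lie below all vehicle libraries.

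EGR1, a growth factor-induced activator and repressor (chromosome 5, 138465492 to 138469315 on hg38), stood at 52.0, 51.0 and 48.4 CPM in the vehicle libraries and at 287, 281 and 273 CPM in those with OA. The OA libraries were all far above the vehicle libraries and close to each other, with an SD of 2.43% of the mean. The log2 fold change was 2.47 (SE 0.034, edgeR quasi-likelihood adjusted p = 6.47e-22), and 8.18% of all genes tested had a larger one. EGR1 also moved up in the ranking of transcripts. Its mean level per kilobase of exon, 16.1 ± 0.59 CPM per kb in vehicle (SD, n = 3), was higher than or equal to that of 70.3% of genes in the table, and the OA level of 89.4 ± 2.2 CPM per kb stood at 96.7%.

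EGR2, which is best known for its part in myelination and hindbrain patterning (chromosome 10, 62811996 to 62819167), was low throughout. The vehicle libraries held 11, 18 and 11 counts and those with OA 118, 137 and 112, which is 0.204, 0.397 and 0.281 CPM against 2.17, 2.5 and 2.15 CPM. The groups were well apart, but the vehicle SD was 33.1% of its mean, so the size of the change is the least certain of the 10. The log2 fold change was 2.96 (SE 0.23, adjusted p = 1.78e-10), with a 95% interval of 5.73-fold to 10.6-fold. Within a library, the ratio of EGR1 to EGR2 per kilobase ran from 129.7 to 257 in vehicle and from 113 to 133 in OA, so the ratios overlapped between groups.

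EGR3, a close relative of EGR1 best known from neurons and muscle spindles (chromosome 8, 22687661 to 22693302), stood at 2.37, 2.69 and 2.96 CPM in the vehicle libraries and at 5.16, 5.95 and 5.22 CPM in those with OA. All OA libraries were above all vehicle libraries. The log2 fold change was 1.04 (SE 0.11, adjusted p = 3.77e-08), well below that of EGR1. The ratio of EGR1 to EGR3 per kilobase rose from 27.4 ± 4.0 to 74.3 ± 6.0 (SD, n = 3) without overlap between libraries. In both groups EGR1 made up nearly all EGR1, EGR2 and EGR3 transcripts, 95.9% ± 0.60 in vehicle and 97.9% ± 0.17 in OA per kilobase.

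Among the JUN genes, JUND changed most. JUND, the JUN protein most often linked to quiescent cells (chromosome 19, 18279694 to 18281656), stood at 83.1, 73.7 and 70.2 CPM in the vehicle libraries and at 156, 154 and 167 CPM in those with OA. The vehicle libraries spread more than those of JUN, but no library crossed between groups. The log2 fold change was 1.07 (SE 0.047, edgeR quasi-likelihood adjusted p = 2.01e-14). JUN, the strongest activator of the family (chromosome 1, 58780791 to 58784113), stood at 90.7, 88.9 and 87.5 CPM in the vehicle libraries and at 124, 127 and 133 CPM in those with OA. The rise was smaller but the libraries of a group were tight (log2 fold change 0.52, SE 0.033, adjusted p = 8.59e-12).

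JUNB, which can restrain JUN activity (chromosome 19, 12791496 to 12793311), stood at 143, 136 and 133 CPM in the vehicle libraries and at 176, 201 and 202 CPM in those with OA. OA replicate 1 was lower than the other two OA libraries yet above all vehicle libraries. The log2 fold change was 0.49 (SE 0.044, adjusted p = 1.85e-09), and it was 0.35 with OA replicate 1 alone against vehicle. In GENCODE v44, 259 bases (14.3%) of the JUNB exons also lie in exons of HOOK2 on the opposite strand. HOOK2 was much lower, at 16.7 ± 1.0 CPM in vehicle and 20.5 ± 1.0 CPM in OA (SD, n = 3). Whether the counting used strand is not known here, so HOOK2 reads within that stretch may have been counted for JUNB. JUN, JUNB and JUND have a single exon each, so reads from genomic DNA cannot be told apart from those of mRNA.

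The JUN genes did not move in equal steps. The ratio of JUND to JUN per kilobase went from 1.55, 1.40 and 1.36 in vehicle to 2.14, 2.06 and 2.13 in OA, without overlap. The ratio of JUNB to JUN was 2.82 ± 0.056 in vehicle and 2.76 ± 0.15 in OA (SD, n = 3), and these libraries overlapped. Such ratios are taken within a library, so no scaling between libraries enters.

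FOSL1, which encodes FRA1, a FOS protein without the strong activation domain of FOS (chromosome 11, 65892136 to 65900526), was the member that fell. It stood at 142, 138 and 125 CPM in the vehicle libraries and at 79.0, 82.7 and 84.8 CPM in those with OA. Every OA library lay well below the lowest vehicle library. The log2 fold change was -0.72 (SE 0.041, edgeR quasi-likelihood adjusted p = 1.52e-12), which is 0.608 of the vehicle level. It was -0.43 with library totals and stayed called. FOSL2, which encodes the related FRA2 (chromosome 2, 28392912 to 28414649), stood at 182, 183 and 175 CPM in the vehicle libraries and at 179, 183 and 183 CPM in those with OA. The groups overlapped and the log2 fold change was 0.01 (SE 0.029, adjusted p = 0.752), with a 95% interval of 0.968-fold to 1.05-fold. FOSL2 passed as higher with library totals (0.30, adjusted p = 4.91e-09) and with upper quartile scaling (0.24, adjusted p = 2.67e-07), where its change was close to the median of all genes.

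FOS and FOSB rose. FOS, the classical immediate early partner of JUN (chromosome 14, 75278778 to 75282234), stood at 56.4, 62.5 and 57.8 CPM in the vehicle libraries and at 75.0, 71.3 and 76.8 CPM in those with OA. The gap between the groups was wider than the spread within either, although the change was the smallest among those called (1.26-fold, log2 fold change 0.34, SE 0.041, adjusted p = 2.23e-07). FOSB, whose splice form delta-FOSB is known for its stability in neurons (chromosome 19, 45467995 to 45475179), was far lower, at 5.59, 6.30 and 4.95 CPM in the vehicle libraries and 8.29, 8.58 and 8.30 CPM in those with OA. Its OA libraries agreed within 1.95% (SD as a share of the mean) and were above all vehicle libraries (log2 fold change 0.57, SE 0.089, adjusted p = 5.61e-06). The table holds a single count per gene, so its splice forms were not told apart.

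**Figure D3:**
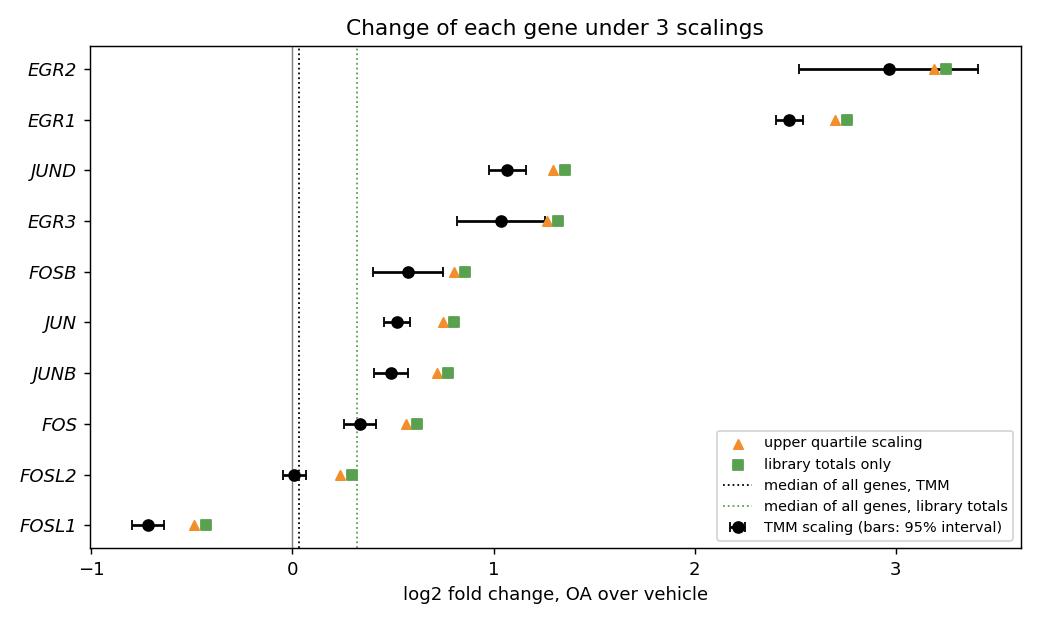
Log2 fold change of OA over vehicle (x axis) for each gene under TMM scaling (black, bars are the 95% interval), upper quartile scaling and library totals, with dotted lines at the median of all genes tested under TMM (0.03) and library totals (0.32). FOSL1 lies below 0 under all 3 scalings, and FOSL2 lies at 0.01 under TMM and 0.30 with library totals.

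The balance between FOS and JUN transcripts shifted. Summed per kilobase, the FOS genes went from 150.9 ± 6.5 to 129.0 ± 2.7 CPM per kb and the JUN genes from 141.0 ± 6.7 to 225.9 ± 11.4 CPM per kb (SD, n = 3). These sums rest on TMM scaling. With library totals the log2 fold changes of the 10 genes were larger by 0.28 to 0.29. The FOS sum in OA was 0.855 of that in vehicle, a fall smaller than this shift. The lower FOS sum is thus relative to the median of all genes and does not hold with library totals. Shares within a library need no such scaling. The FOS genes held 51.7% ± 0.89 of the AP-1 transcripts of these 7 genes in vehicle and 36.4% ± 0.74 in OA, with libraries at 51.0%, 52.7% and 51.5% against 37.2%, 36.1% and 35.8%. The OA libraries were all below the vehicle libraries. By share, FOSL1 and JUND moved most. The share of FOSL1 went from 26.3% ± 0.63 to 13.2% ± 0.079, and that of JUND from 13.2% ± 0.69 to 22.9% ± 0.70. The share of JUNB rose from 25.9% ± 0.40 to 29.9% ± 1.4. That of FOSL2 fell from 15.5% ± 0.35 to 12.8% ± 0.34 although its level did not pass the test, because a share also depends on the other genes. The share of FOS was 9.36% ± 0.64 in vehicle and 9.71% ± 0.46 in OA, and its libraries overlapped. The ratio of FOSL1 to FOS per kilobase was 3.10, 2.71 and 2.67 in vehicle and 1.30, 1.43 and 1.36 in OA. These shares concern mRNA, and protein was not measured in these libraries.

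**Figure D4:**
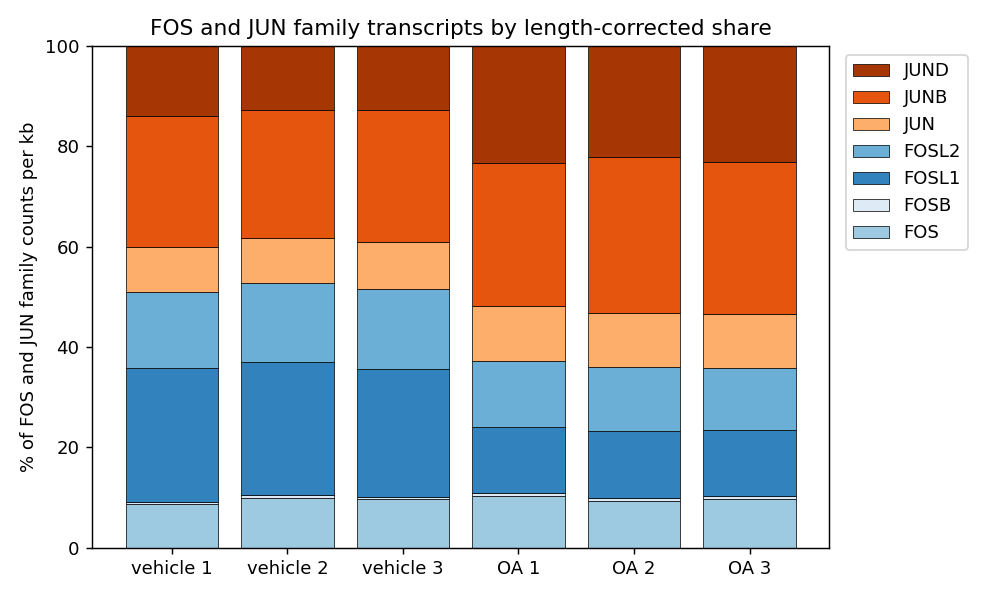
Share of each FOS gene (blue) and JUN gene (orange) in the sum of the 7 genes, in percent of counts per kilobase (y axis), for each library. The FOS genes take 51.0% to 52.7% of a vehicle library and 35.8% to 37.2% of an OA library.

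The order of levels per kilobase changed with OA. In vehicle FOSL1 (76.9 ± 5.0 CPM per kb) and JUNB (75.6 ± 2.8) stood highest and did not differ beyond their spread, followed by FOSL2 (45.2 ± 1.1), JUND (38.5 ± 3.4) and then FOS (27.3 ± 1.5) and JUN (26.8 ± 0.48), which overlapped. EGR1 came next at 16.1 CPM per kb, and FOSB (1.49), EGR3 (0.593) and EGR2 (0.0929) were lowest. In OA the order was led by JUNB (106.4 ± 8.2), EGR1 (89.4 ± 2.2) and JUND (81.1 ± 3.5), with no overlap between neighbours. FOSL1 (46.9 ± 1.7) and FOSL2 (45.5 ± 0.65) overlapped, and JUN (38.4 ± 1.3) and FOS (34.4 ± 1.3) followed. FOSB (2.22), EGR3 (1.21) and EGR2 (0.719) kept the lowest places. Exon overlap with other GENCODE v44 genes was 4.59% of the EGR2 and 3.64% of the EGR3 length, both with long noncoding genes that were not used here.

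The genes whose profiles lay closest to a member over the 6 libraries were looked up for the largest riser and the faller. Distance was the root mean square difference of log2(CPM + 0.5) minus the vehicle mean, over 13773 genes. For EGR2 the nearest were PRKG2 (distance 0.061), TNFRSF11A (0.064) and TRPV2 (0.066). Their fitted log2 fold changes were 2.03, 2.22 and 3.09, against 2.96 for EGR2. The added 0.5 CPM exceeds the EGR2 vehicle mean of 0.294 CPM and shrinks its change here. A small distance to EGR2 thus need not mean an equal fold change. For FOSL1 the nearest were MOK (0.021), TNFRSF1A (0.028) and DGKZ (0.028). Within a distance of 0.1 there were 32 genes for EGR2 and 773 for FOSL1, so the nearest were not set apart from many others.

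Marker transcripts were checked against the cell label. All 9 mammary epithelial markers were present and summed to 8066 to 8316 CPM in vehicle and 4631 to 4810 CPM in OA. They went both ways, with 6 lower, among them KRT5 (3918 to 1061 CPM) and ITGA6 (1417 to 480 CPM), and 3 higher (KRT17, EPCAM and CDH1). Of 19 hepatocyte markers 14 had a row. They summed to 6.72 to 11.7 CPM in vehicle and to 12.8, 32.2 and 100.8 CPM in OA replicates 1, 2 and 3, and TTR and CYP3A4 had no row. SERPINA1 made up most of the sum in vehicle and in OA replicate 1, at 5.83, 6.46 and 6.71 CPM with vehicle and 10.7, 10.9 and 12.7 CPM with OA. ALB, the albumin gene, had 13, 110 and 60 counts with vehicle and 32, 578 and 2427 with OA, and APOB, APOH and HP were at 0 in OA replicate 1. JUN, JUNB, FOSL1 and FOSL2 were also lowest in OA replicate 1 and highest in OA replicate 3, while EGR1 had the reverse order and the other 5 genes neither. With OA replicate 1 alone against vehicle, a fit chosen after seeing the data that assumes the lone OA library varies like the vehicle libraries, 8 genes were called higher and 1 lower. In that fit the log2 fold changes of JUN, JUNB and FOSL1 were 0.47, 0.35 and -0.78. Of 15 fibroblast, endothelial and immune markers 7 had a row and summed to 90.5 to 106.6 CPM in vehicle and 168.9 to 169.8 CPM in OA. Of these 7, 5 were higher (COL1A1, PDGFRB, KDR, CD14 and CD68), where 43.3% of all genes were. PECAM1 was lower and DCN did not pass. COL1A2, COL3A1, LUM, CDH5, VWF, PTPRC, CD3E and LYZ had no row. The part of these marker transcripts in the results was not tested. In bulk RNA, a change in the number of cells that make a transcript and a change per cell cannot be told apart.

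Genes that work with these factors are given by lists, and ATF3, ZFP36 and NAB2 stand in more than 1 of them. Their counts are to be read beside the 43.3% of all genes called higher and 41.1% called lower. Of 11 other AP-1 partners with a row, bZIP factors that pair with FOS or JUN proteins, 10 rose and 1 fell (8 rose with DESeq2), with a median log2 fold change of 1.11 against 0.03 for all genes. ATF3, a stress-induced bZIP factor, rose from 10.99 ± 0.37 to 102.6 ± 3.9 CPM (SD, n = 3), and the small MAF genes MAFG and MAFF rose 2.15-fold and 2.34-fold. Beside EGR1, EGR2 and EGR3, the fourth family gene EGR4 rose 4.23-fold from 0.491 CPM. NAB1, a corepressor that binds EGR proteins, fell (-0.33), a call lost with library totals (-0.05, adjusted p = 0.191), and NAB2, itself an EGR target, did not pass (0.11, adjusted p = 0.0548).

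Of 31 other immediate early genes with a row, 23 rose and 7 fell, and the median log2 fold change was 0.78. PPP1R15A, which restores translation after stress, rose from 44.4 ± 1.7 to 394.8 ± 8.8 CPM (SD, n = 3), and PLK2, a polo-like kinase gene, fell to 0.246 of vehicle. The genes that follow were chosen once their values were known. The orphan nuclear receptor genes NR4A1, NR4A2 and NR4A3 rose, with log2 fold changes of 1.81, 0.94 and 3.17, and DUSP1, a phosphatase that inactivates MAP kinases, rose by 1.94 on the log2 scale. The fallers beside PLK2 were MYC (-0.72), CCN1 (-2.06), CCN2 (-0.75), SGK1 (-1.56), IER5L (-1.11) and DUSP2 (-0.54).

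Of 27 upstream kinases and factors 9 were higher and 15 lower, with a median of -0.14. With upper quartile scaling 12 were higher and 10 lower, and with library totals 16 and 7, so the side with more genes depended on the scaling. The transcription factor gene MEF2A (2.26-fold) and the kinase gene RPS6KA5 (3.69-fold) rose, while RPS6KA4, a close relative of RPS6KA5, fell to 0.338 of vehicle. SRF fell (-0.84) and was chosen once its value was known. Of 15 genes that bind or degrade short-lived mRNAs 12 fell and 3 rose (median -0.47), against 41.1% lower and 43.3% higher over all genes, and 9 were lower with library totals and with upper quartile scaling. HNRNPD, whose protein binds AU-rich elements such as that of FOS, fell to 0.264 and KHSRP to 0.379, and ZFP36, which directs such mRNAs to decay, rose 2.38-fold.

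Of 20 AP-1 targets with a row 12 rose and 7 fell (median 0.65), where 43.3% of all genes rose and 41.1% fell. The urokinase receptor gene PLAUR rose 3.03-fold and the integrin gene ITGA5 2.33-fold, and CCND1, which encodes cyclin D1, fell to 0.437. The matrix metalloproteinase genes MMP1, MMP3, MMP9 and MMP10, named after their values were seen, rose by 2.95, 1.26, 3.64 and 3.72 on the log2 scale. They were low in vehicle, at 3.80, 1.07, 0.262 and 0.766 CPM. The fallers beside CCND1, also named after their values were seen, were PLAU (-1.19), IVL (-2.29), SPRR1B (-1.44), CD44 (-0.55), ITGB4 (-0.61) and VIM (-0.42). Of 12 EGR targets 5 rose, 3 fell and 4 did not pass (median 0.23), so the share that rose was near that of all genes, and 9 were higher with library totals and with upper quartile scaling. The adhesion molecule gene ICAM1 rose 3.27-fold, while F3, the tissue factor gene, fell to 0.0854 and the thrombospondin gene THBS1 to 0.397 of vehicle. Target lists name genes regulated in other settings, and binding was not measured in these libraries.

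**Figure D5:**
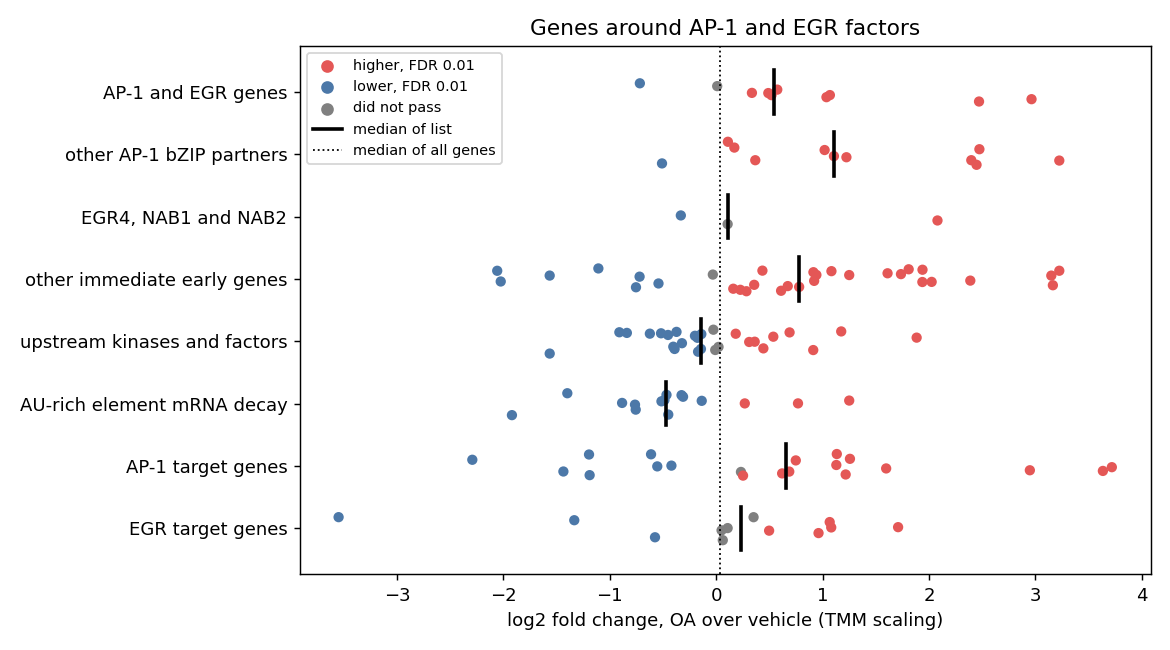
Log2 fold change (x axis) of each tested gene in the 8 lists, coloured by call at a false discovery rate of 0.01, with the list median (black bar) and the median of all genes tested (dotted line, 0.03). The AP-1 and EGR genes have a median of 0.55, the other immediate early genes 0.78 and the mRNA decay genes -0.47.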

How the data were processed

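RNA sequencing counts of 6 MCF-12A libraries, 3 with OA and 3 with vehicle by the treatment label, were analysed. The authors mapped reads with STAR 2.5 to hg38, dropped reads of low quality or with several hits, and deposited raw counts per gene from featureCounts 1.5.1 with the exon length of each gene. The strand setting and the rule by which low genes had been removed are unknown here (lowest total over the libraries 14). The sources differ on single-read or paired-end layout. Totals ran from 43049972 to 59935521 counts.

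With edgeR 4.0.16 in R 4.3.3, filterByExpr removed 18 genes, TMM scaled the libraries, and a two-sided quasi-likelihood test compared OA with vehicle, with p-values adjusted by Benjamini-Hochberg over 14785 genes at 0.01. SEs were taken from the log2 fold change and the F statistic (median 0.053), and 95% intervals from a normal approximation to them. The study's edgeR likelihood ratio test, DESeq2 1.42.0, limma-voom (limma 3.58.1), other scalings, other filters, a replicate block, omission of each library and a false discovery rate of 0.05 were alternatives. Levels between genes were compared as CPM per kilobase of the deposited length. The genes described, the other lists and the tests were chosen with earlier results of these data known. From each list up to 3 called genes with the lowest p were named if the higher group averaged 1 CPM or more, and the text says where others were chosen once their values were known; some list genes are not reported here. Pairs of libraries of a group differed beyond counting noise (chi-square per degree of freedom at least 2.73), so none was a plain copy of another. This check cannot tell separate cultures from repeat libraries of the same culture. Promoter windows came from RefSeq (GRCh38.p14), the same assembly as hg38.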

Additional observations from a re-analysis of the deposited data

How the results depend on the processing

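Across 16 other fits, 9 of the 10 genes kept their direction and call in every fit, and the counts of 8 higher and 1 lower were the same in all but library totals and upper quartile scaling, where FOSL2 joined the higher genes (9 higher). FOSL2, which did not pass with TMM, had log2 fold changes of -0.0074 with DESeq2 and with its size factors under edgeR, -0.0083 without OA replicate 3, -0.011 without vehicle replicate 3 and -0.022 with OA replicate 1 alone, none of which passed. When each library was left out in turn, log2 fold changes ran from -0.011 to 0.022 for FOSL2, 2.44 to 2.49 for EGR1, 2.72 to 3.25 for EGR2, 0.950 to 1.11 for EGR3, 1.02 to 1.14 for JUND and -0.77 to -0.68 for FOSL1.

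The list counts that moved by over 1.5 times with library totals were those of EGR4, NAB1 and NAB2 (2 higher and 0 lower), EGR targets (9 higher) and upstream genes (16 higher and 7 lower), and upper quartile scaling gave 2 higher and 9 higher for the first pair of lists. Smaller moves included the mRNA decay genes (9 lower against 12, with both scalings), the upstream genes with upper quartile scaling (12 higher and 10 lower) and the other AP-1 partners (8 higher against 10 with DESeq2 and with its size factors). Higher genes made up 51.3% of all calls with TMM, 65.4% with library totals and 62.6% with upper quartile scaling. Without division by gene length, the FOS genes held 55.7% of AP-1 counts in vehicle and 41.9% in OA.

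Libraries with the same replicate number did not deviate together (r = 0.0013, 0.018 and -0.079), and pairs with different numbers ran from -0.094 to 0.089. With 3 libraries per group, these values cannot decide whether the numbers mark a pairing. With a replicate block, 8 of the 10 genes were higher and 1 lower, and over all genes 6294 were higher and 5983 lower, against 6409 and 6084 without it. EGR2, with 11 to 18 counts in a vehicle library, is where depth limits precision most.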
